A study of Mus musculus with 6 samples.

Results

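The complement system was examined in cultured mouse cardiac fibroblasts (CFs) through 9 genes of components and regulators that these cells can make: *C1ra*, *C1s1*, *C4b*, *Masp1*, *C3*, *Cfb*, *Cfp*, *Serping1* and *Cd55*. They were looked up by gene symbol in a table of 19446 genes, and all 9 were found. CFs are the stromal cells that make most of the extracellular matrix of the heart. They were grown from the hearts of C57BL/6J mice, either wild type (WT) or CharmeKO. CharmeKO mice carry a polyadenylation signal inserted at *Charme*, the locus of a long non-coding RNA. The labels give an age of 5 weeks, and the methods of the study give a range around it for explant cultures. There were 3 libraries per genotype, numbered 1 to 3, and no treatment was given to either group. All 6 came from explants, in which cells grow out of minced atrial tissue pooled from littermates onto fibronectin-coated plates in medium rich in serum. The labels do not say that replicates came from separate cultures, so the p-values measure only the spread between these libraries. Freshly isolated CFs were not analysed here.

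Complement is a cascade of plasma and tissue proteins that tags microbes and damaged cells for removal and draws in leukocytes. The classical pathway starts when C1q, bound to its target, activates the proteases C1r and C1s, which cleave C4 and C2. The lectin pathway reaches the same step through the MASP proteases, and both converge with the alternative pathway on the cleavage of C3. The liver supplies most plasma complement, but fibroblasts of many tissues also make C3, C1r and C1s, and inflammatory cytokines such as IL-6 and interferon gamma are known to raise their output. Cells limit the cascade on their own surface with membrane proteins such as CD55, and secrete inhibitors such as the C1 inhibitor, the product of *Serping1*.

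Levels are given as normalised reads, that is, the reads of a gene divided by a size factor of its library. The libraries held 38330019 to 46797446 reads assigned to genes. One feature carried no Ensembl identifier and was taken, as an inference, to be the *Charme* entry added by the authors. Libraries 1 to 3 of WT had 5, 15 and 11 of its reads, and those of CharmeKO had 0, 6 and 3. The genotypes overlapped, so this feature checks the labels only weakly. All 9 fibroblast markers were present and took 2.53 to 5.36% of the reads of a library. Macrophage markers took 0.00256 to 0.0437%, mesothelial markers 0.00217 to 0.0345%, smooth muscle and pericyte markers 0.0284 to 0.560%, endothelial markers 0.000100 to 0.000814% and cardiomyocyte markers 0.000322 to 0.00185%. These are bulk libraries, in which fewer cells of a type and less RNA per cell cannot be told apart.

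*C3*, *C1s1*, *C1ra* and *C4b* were all far higher in both libraries numbered 2 than in the other 4 libraries, and for each of the 4 this difference was larger than that between the genotypes in any pair of equal number. None of the 8 members with enough reads to be tested passed the test between WT and CharmeKO, and the 2 genotypes overlapped for all 9. Only 4.11% of all tested genes showed no overlap, so 0 of the 8 tested members is near the share of all genes. In the pair of libraries numbered 2, the 9 genes together took 0.310% of all reads in WT and 0.531% in CharmeKO. In the other libraries they took 0.0353% (WT 1), 0.0635% (WT 3), 0.0467% (CharmeKO 1) and 0.0735% (CharmeKO 3). The plot of each gene by library shows the peak at number 2 in both genotypes.

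**Figure D1:**
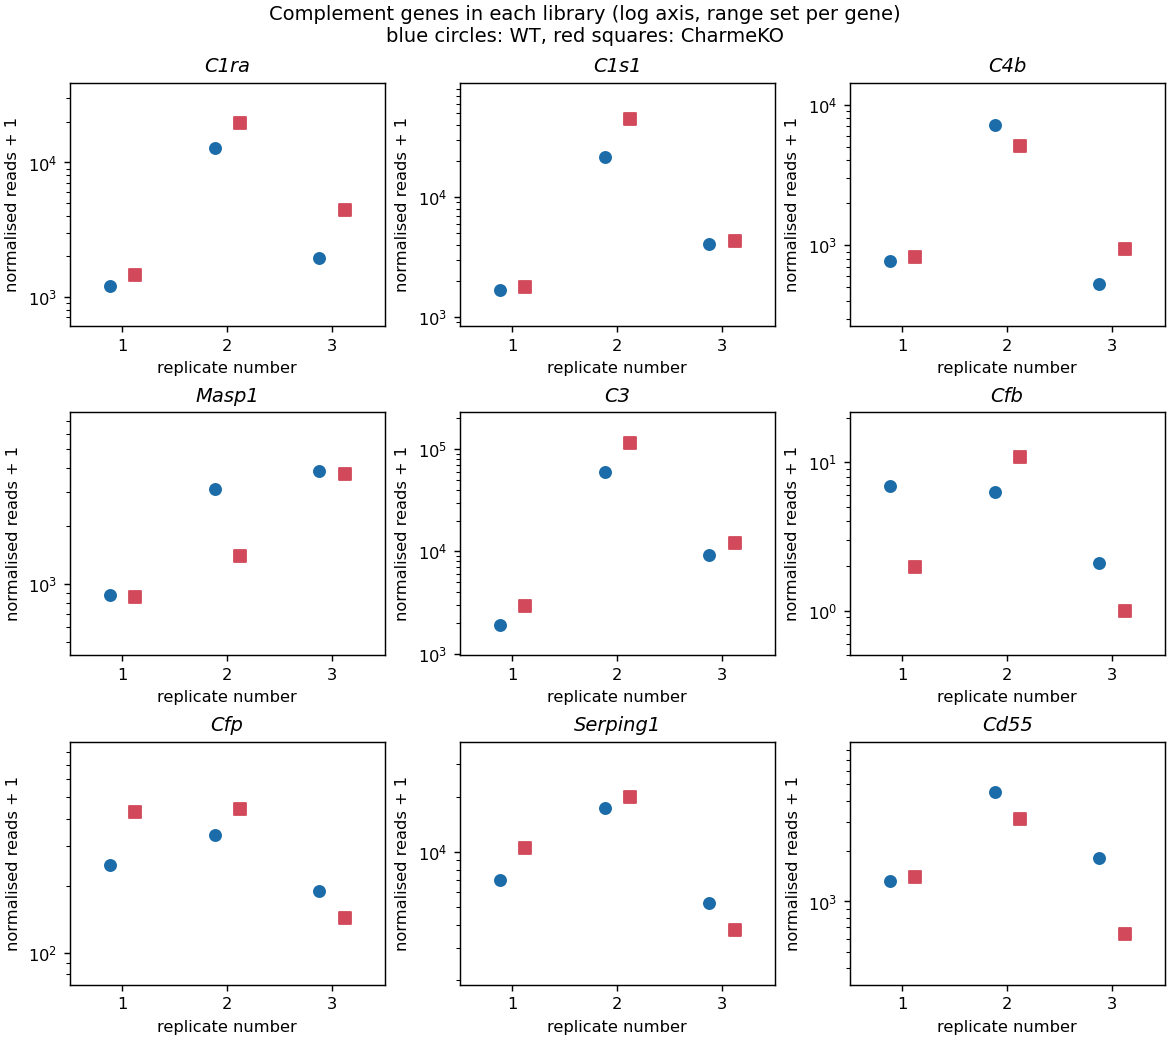
Each panel plots 1 gene, with the replicate number on the x axis and normalised reads + 1 on a log y axis whose range is set per gene, as 1 point per library (circles WT, squares CharmeKO, no error bars because each point is 1 library). *C3*, *C1s1*, *C1ra* and *C4b* are highest in both libraries numbered 2, *Masp1* is highest in both numbered 3, and *Cfb* lies at or below 9.83 normalised reads throughout.

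The upstream sequences of *C3*, *C1ra* and *C1s1* are shown because these 3 genes were high in the same libraries and higher in CharmeKO in all 3 pairs. They are the 250 bases before the RefSeq transcription start on the build GRCm38.p6, read 5′ to 3′ on the strand of the gene. Promoters of 5 of the 9 members could be matched, and those of *C4b*, *Cfb*, *Serping1* and *Masp1* were not among them. Capitals mark matches on either strand to a C/EBP-like motif (TTNCNNAA) or an NF-kB-like motif (GGG, then 3 bases of any kind, T, 1 base of any kind and CC), families of factors known to act on acute phase genes. A STAT-like motif (TTCNNNGAA) was searched too. The matches shown do not overlap each other.
C3, chr17:57228137-57228386, minus strand: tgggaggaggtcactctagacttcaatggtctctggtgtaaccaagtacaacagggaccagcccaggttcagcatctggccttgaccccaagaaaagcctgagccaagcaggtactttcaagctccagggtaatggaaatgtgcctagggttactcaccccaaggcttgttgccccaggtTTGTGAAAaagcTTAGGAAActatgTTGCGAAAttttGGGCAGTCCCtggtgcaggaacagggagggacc
C1ra, chr6:124512371-124512620, plus strand: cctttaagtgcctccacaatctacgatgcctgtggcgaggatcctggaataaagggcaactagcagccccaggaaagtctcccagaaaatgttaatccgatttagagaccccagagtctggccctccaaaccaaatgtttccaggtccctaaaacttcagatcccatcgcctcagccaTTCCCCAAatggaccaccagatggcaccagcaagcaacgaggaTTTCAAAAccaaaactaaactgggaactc
C1s1, chr6:124542360-124542609, minus strand: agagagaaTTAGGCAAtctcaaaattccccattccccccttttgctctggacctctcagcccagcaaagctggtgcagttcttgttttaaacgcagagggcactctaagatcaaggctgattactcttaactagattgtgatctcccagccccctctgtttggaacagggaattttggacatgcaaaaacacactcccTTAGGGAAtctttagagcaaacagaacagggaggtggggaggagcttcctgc

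The *C3* sequence held 3 C/EBP-like matches, which began 70, 58 and 45 bases before the start, and 1 NF-kB-like match at 33 bases. Of 32851 promoters of the same length, 36.8% held at least 1 C/EBP-like match, 2.61% held at least 3 and 14.9% held an NF-kB-like match. *C1ra* held 2 C/EBP-like matches, at 72 and 29 bases, and *C1s1* held 2, at 242 and 52 bases. The 250 bases before a second RefSeq start of *C1s1* held 1, at 90 bases. At least 2 such matches were found in 10.9% of all promoters. *Cd55* held 3 NF-kB-like matches, at 151, 61 and 17 bases, and no C/EBP-like match, and *Cfp* held neither. At least 3 NF-kB-like matches were found in 0.253% of all promoters. No STAT-like match lay in any of the 5, against 7.02% of all promoters. A match describes the letters only and is not a binding site.

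Among the proteases and substrates of the classical pathway, *C1ra* encodes C1r, which activates C1s. Its level was 1208, 12914 and 1953 normalised reads in WT libraries 1 to 3 and 1453, 19528 and 4426 in CharmeKO libraries 1 to 3. Both libraries numbered 2 stood 2.92 times or more above the highest of the others, and CharmeKO was higher in each pair, while the groups overlapped. The means were 5358 ± 6554 (SD, n = 3) in WT and 8469 ± 9692 (SD, n = 3) in CharmeKO. *C1ra* lies on chr6:124512405-124523443 on the plus strand of GRCm38, and the RefSeq start used above lies inside this gene model. It shares 35.9% of its stretches of 100 bases with other genes, *C1rb* and *Gm18840*. Reads that map to more than 1 place are not counted, but the read length was not known, so the loss could not be measured. *C1rb* held 2.95, 2.14 and 2.20 normalised reads in WT and 0, 81.6 and 6.09 in CharmeKO, so the copy was also highest in CharmeKO 2.

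*C1s1* encodes C1s, the protease that cleaves C4 and C2. It held 1679, 21491 and 4045 normalised reads in WT and 1785, 44506 and 4274 in CharmeKO. Pairs 1 and 3 were nearly level, with CharmeKO higher by 0.089 and 0.079 on the log2(value + 1) scale, whereas pair 2 differed by 1.05. The means were 9072 ± 10820.1 (SD, n = 3) in WT and 16855 ± 23979 (SD, n = 3) in CharmeKO. *C1s1* (chr6:124530345-124542359, minus strand) lies next to *C1ra*, in the opposite orientation. It shares 6.87% of its 100-base stretches with its copy *C1s2*, which held 0.985, 8.54 and 3.30 normalised reads in WT and 4.81, 51.1 and 8.70 in CharmeKO.

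*C4b* encodes C4, which forms the C3 convertase with C2. It held 767, 7111 and 531 normalised reads in WT and 818, 5060.1 and 938 in CharmeKO. The libraries numbered 2 were again the highest, at least 5.40 times the others, but here WT 2 exceeded CharmeKO 2. The difference between the genotypes was +0.093, -0.49 and +0.82 on the log2(value + 1) scale in pairs 1 to 3. The means were 2803 ± 3733 (SD, n = 3) in WT and 2272 ± 2415 (SD, n = 3) in CharmeKO, so the mean of the levels was lower in CharmeKO while the mean of the log2 levels was slightly higher. *C4b* (chr17:34728380-34743882, minus strand) shares 15.2% of its 100-base stretches with *C4a*, which held 30.5, 58.7 and 40.6 normalised reads in WT and 36.5, 89.5 and 46.1 in CharmeKO.

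*Masp1* (chr16:23449417-23520815, minus strand) encodes proteases of the lectin pathway. It departed from the pattern, with 875, 3096 and 3868 normalised reads in WT and 857, 1393 and 3739 in CharmeKO. The highest value of each genotype was in library 3 and the lowest in library 1. CharmeKO was lower in all 3 pairs, by 0.031 and 0.049 in pairs 1 and 3 and by 1.15 in pair 2 (log2 scale), so the difference lay almost wholly in the libraries numbered 2. The means were 2613 ± 1554 (SD, n = 3) in WT and 1996 ± 1533 (SD, n = 3) in CharmeKO.

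*C3* (chr17:57203970-57228136, minus strand) encodes the protein on which all the pathways converge. It spanned the widest range of the 9 genes, with 1925, 59968.5 and 9167 normalised reads in WT and 2911, 113859 and 11988 in CharmeKO. The highest library held 59.1 times the lowest, and the order by replicate number, with 2 above 3 above 1, was the same in both genotypes. CharmeKO was higher by 0.60, 0.92 and 0.39 on the log2 scale in pairs 1 to 3. The means were 23687 ± 31629 (SD, n = 3) in WT and 42919 ± 61603 (SD, n = 3) in CharmeKO. In CharmeKO 2, *C3* alone took 0.291% of all reads, against 0.00453% in WT 1.

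*Cfb* encodes factor B, the protease of the alternative pathway convertase. It had too few reads to be tested, with 6, 5 and 1 reads in WT and 1, 10 and 0 in CharmeKO. The 0 of CharmeKO 3 allows up to 3 reads, which is 2.61 normalised reads and covers counting error only. In the GENCODE annotation of GRCm38, only 579 of the 2825 exon bases of *Cfb* (20.5%, chr17:34856374-34862518, minus strand) are free of *Gm20547*, a gene model on the same strand. The counting used for this table drops reads that fall on more than 1 gene, so under that annotation the low values are not a measure of the whole gene. *Gm20547* has no entry in the table used.

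*Cfp* (chrX:20925454-20931555, minus strand) encodes properdin, which stabilises the alternative pathway convertase and is mainly a product of leukocytes. It held 247, 335 and 189 normalised reads in WT and 427, 441 and 143 in CharmeKO. CharmeKO was higher in pairs 1 and 2 and lower in pair 3, and both libraries numbered 3 were the lowest. The means were 257 ± 73.7 (SD, n = 3) in WT and 337 ± 168 (SD, n = 3) in CharmeKO. The summed level of the 11 macrophage markers was, like *Cfp*, lowest in both libraries numbered 3 and higher in CharmeKO in pairs 1 and 2 only, but it was highest in library 1 of each genotype, with 8748, 5153 and 2005 normalised reads in WT and 18799.9, 13307 and 1043 in CharmeKO. *Lyz2* made up most of the sum in libraries 1 and 2 of each genotype, with 4919 and 3181 normalised reads in WT and 12791 and 10470 in CharmeKO. Not all the markers followed the sum. *Cd14* was highest in library 2 of each genotype and higher in CharmeKO in all 3 pairs, from 102 in WT 1 to 793 in CharmeKO 2. *Csf1r* was lowest in library 2 of WT, with 1427, 294 and 358 in WT and 1447, 336 and 330 in CharmeKO. *C1qa* was highest in library 2 of each genotype, and *Fcgr1* was higher in CharmeKO in all 3 pairs. Of the 11 macrophage markers, *Ptprc* had 0 reads in CharmeKO 3 and *Fcgr1* in WT 3, and none of the others was at 0 in any library. The part of macrophages in the *Cfp* values was not tested.

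Of the inhibitors, *Serping1* (chr2:84765387-84775444, minus strand) encodes the C1 inhibitor, which blocks C1r, C1s and the MASP proteases. It held 6993, 17437 and 5289.7 normalised reads in WT and 10434.5, 19896.5 and 3767 in CharmeKO. The libraries numbered 2 were the highest and those numbered 3 the lowest, and the pairs differed by +0.58, +0.19 and -0.49 on the log2 scale. The means were 9906 ± 6577 (SD, n = 3) in WT and 11366 ± 8105 (SD, n = 3) in CharmeKO. *Cd55* (chr1:130439027-130462744, minus strand) encodes the membrane protein that speeds the decay of C3 convertases. It held 1326, 4494 and 1816 normalised reads in WT and 1406, 3122 and 635 in CharmeKO. Both libraries numbered 2 were the highest, and CharmeKO was level in pair 1 (+0.085) and lower in pairs 2 and 3 (-0.53 and -1.51, log2 scale). It shares 4.19% of its 100-base stretches with *Cd55b*, which was not in the table used. The means were 2545 ± 1705 (SD, n = 3) in WT and 1721 ± 1273 (SD, n = 3) in CharmeKO.

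The genotypes were compared with limma on log2(value + 1) on the 15948 genes that reached 10 reads in 2 or more libraries, with a two-sided test and p-values adjusted over all of these genes by the Benjamini-Hochberg method at a threshold of 0.05. Among the 8 tested members 0 passed, as did 0% of all genes, and at an unadjusted p below 0.05 the counts were 0 members and 0.897% of all genes. edgeR on the recovered reads called 0 members and 0% of all genes (0 members and 0.991% at an unadjusted p below 0.05). DESeq2 called 0 members and 0.0502% of all genes, and gave no p-value for *C4b*. A log2 difference of at least 1 either way was reached by 0 of the 8 members and by 5.04% of all tested genes. The differences, CharmeKO minus WT, were 0.68 ± 1.18 (SE) for *C1ra*, 0.64 ± 1.65 for *C3* and 0.41 ± 1.38 for *C1s1*. They were 0.26 ± 0.50 for *Cfp*, 0.14 ± 1.13 for *C4b* and 0.093 ± 0.69 for *Serping1*. For *Masp1* the difference was -0.41 ± 0.73 and for *Cd55* -0.65 ± 0.68. Each SE allows changes of several-fold either way for *C3*, *C1s1*, *C1ra* and *C4b*, so a difference between genotypes was not detectable at this spread rather than absent. The limma adjusted p was 0.9999 for all 8 genes.

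In an exact permutation test of the mean log2 level, where 3 against 3 libraries allow no p under 0.1, the two-sided p was 0.5 for *Cd55* and 0.6 for *C1ra* and *Cfb*. It was 0.7 for *C3*, *C1s1* and *Masp1*, 0.8 for *C4b* and *Cfp* and 0.9 for *Serping1* in the same exact test. Leaving out 1 library leaves its pair in 1 genotype only, and the sign of several differences in this fit without pairing then turned. Without WT 1 the difference was -0.57 for *C3*, -0.42 for *C1s1*, -0.31 for *C4b*, -0.060 for *Serping1* and -0.0043 for *C1ra*. Without CharmeKO 2 it was -0.79 for *C3*, -0.93 for *C1s1*, -0.30 for *C1ra*, -0.70 for *C4b*, -0.46 for *Serping1* and -0.019 for *Cfp*. Without WT 3 it was -0.57 for *C4b* and -0.26 for *Serping1*, and without CharmeKO 1 it was 0.060 for *Masp1*. *Cd55* kept its sign throughout. The difference of *C4b* was also negative with edgeR and with DESeq2, at -0.31 in both.

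**Figure D2:**
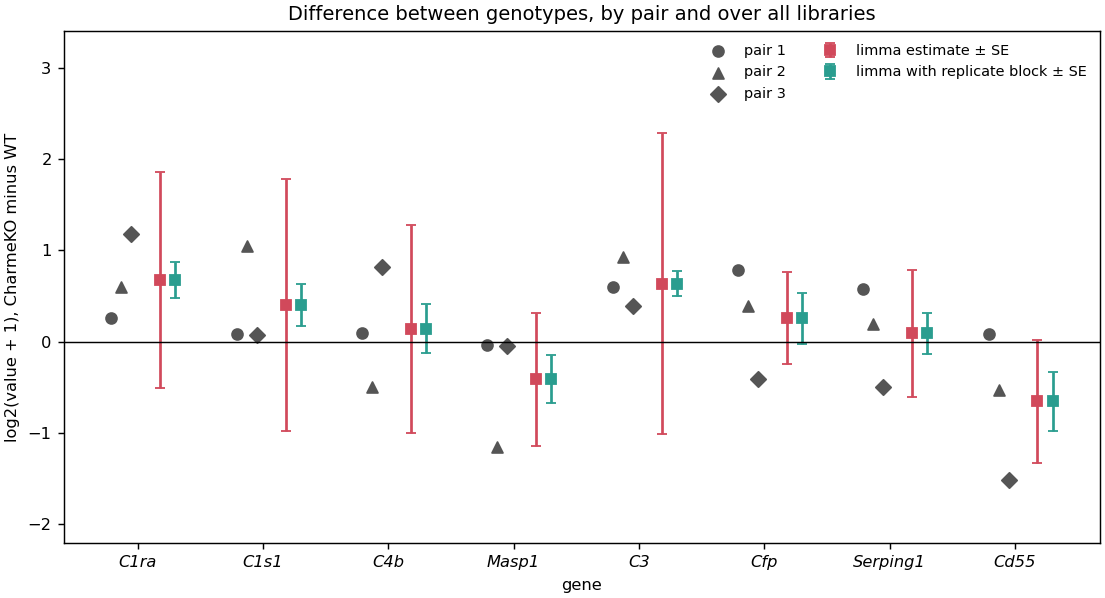
The y axis gives the difference in log2(value + 1), CharmeKO minus WT, for the 8 tested genes on the x axis. Grey symbols are the 3 pairs of equal replicate number, red squares the limma estimate ± SE over all 6 libraries and green squares the same estimate ± SE with the replicate number as a block. All 3 pairs of *C3*, *C1s1* and *C1ra* lie above 0 and all 3 of *Masp1* below, and the SE of *C3* is 1.65 without the block and 0.14 with it.

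The genotypes were also compared within pairs of equal replicate number. Across genes, the deviations of equal-numbered libraries from their group means correlated positively in every pair, but in pair 3 (r = 0.217) no more than those of WT 2 and CharmeKO 3 (r = 0.222). *C3*, *C1s1* and *C1ra* were higher in CharmeKO in all 3 pairs, as were 16.4% of all tested genes, and *Masp1* was lower in all 3, as were 14.0% of them. With the replicate number as a block, limma called 0 members and 0% of all genes. At an unadjusted p below 0.05 it listed 2 members, *C3* and *C1ra*, and 5.37% of all genes. The SE of *C3* narrowed to 0.14 and that of *C1ra* to 0.20, with limma adjusted p = 0.80 for both. DESeq2 with the block called 0 members and 0.401% of all genes, and its adjusted p was 0.055 for *C3* and 0.26 for *C1ra*. Over all alternatives the adjusted p ran from 0.055 to 1.00 for *C3* and from 0.26 to 1.00 for *C1ra*, so neither passed 0.05 in any of them. The exact test over the signs of the 3 pairs, whose smallest possible p is 0.25, gave 0.25 for *C3*, *C1s1*, *C1ra* and *Masp1*, 0.5 for *Cd55* and 0.75 for *C4b*, *Cfp* and *Serping1*.

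The variation by replicate number was described with no test, because it was noticed in these values. Both libraries numbered 2 exceeded the other 4 for 6 of the 8 tested members (*C3*, *C1s1*, *C1ra*, *C4b*, *Serping1* and *Cd55*), and for 16.1% of all tested genes. They did so at least 2-fold for *C3*, *C1s1*, *C1ra* and *C4b*, and for 1.67% of all tested genes. The lower of both was 5.40 times the highest of the others for *C4b*, 5.03 times for *C1s1*, 5.00 times for *C3* and 2.92 times for *C1ra*. Both were below the other 4 for 0 of the 8 members and for 18.4% of all tested genes. The same ratio was 1.72 times for *Cd55*, 1.67 times for *Serping1*, 0.785 times for *Cfp* and 0.360 times for *Masp1*. The plot of the sums of squares divides the variation of each gene over the 6 libraries. The replicate number held 97.5% of it for *C3*, 97.0% for *C1s1*, 96.3% for *C4b*, 93.6% for *C1ra* and 93.3% for *Serping1*. The remaining genes were *Masp1* with 87.4%, *Cfp* with 78.2% and *Cd55* with 73.9%, beside a median of 73.8% over all tested genes. A share of at least 90% was found for 5 of the 8 members and 22.0% of all tested genes. Genotype held 12.9% of the variation of *Cd55*, the largest share among the members, and 2.23% of that of *C3*, beside a median of 5.91%.

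**Figure D3:**
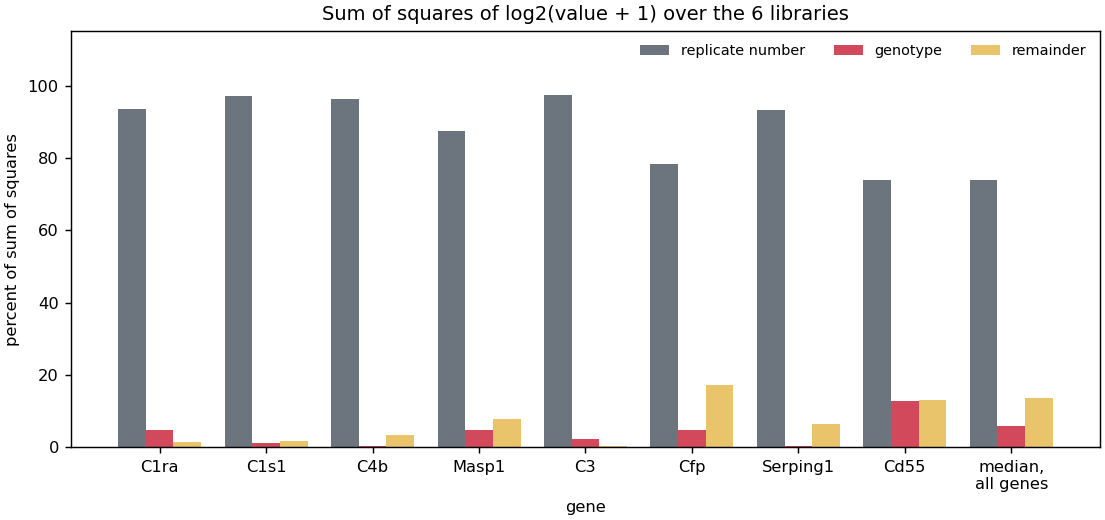
Bars give the percent of the sum of squares of log2(value + 1) over the 6 libraries (y axis, from 0) that goes with replicate number, genotype and the remainder, for the 8 tested genes and as the median over all 15948 tested genes (x axis). Replicate number holds 73.9% (*Cd55*) to 97.5% (*C3*), and genotype 0.237% (*C4b*) to 12.9% (*Cd55*).

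The levels of the genes were set side by side per kilobase of exon (GENCODE annotation of GRCm38), as normalised reads per kb. The means over the 6 libraries were 6475 for *C3*, 4575 for *Serping1*, 4143 for *C1s1* and 2319 for *C1ra*. Far below came *C4b* at 446, *Cd55* at 439.5, *Masp1* at 234 and *Cfp* at 171, and *Cfb* was lowest at 1.37. Neighbours in this order were not separated beyond their spread over libraries, apart from *Cfp* and *Cfb*, whose ranges did not overlap in either genotype. Within a library the order was firmer at some steps. *C1ra* exceeded *C4b* in 6 of 6 libraries, *Serping1* exceeded *C1s1* in 5 and *C1s1* exceeded *C1ra* in 5. *C3* exceeded *Serping1* in 3 of the 6, and *C4b* exceeded *Cd55* in 3. Levels per kb of full exon length can be too low for genes that share sequence with copies, of which *C1ra* shares the most. Under this annotation *Cfb* is affected more, as only 579 of its 2825 exon bases are free of *Gm20547*. Its value per kb is therefore not a measure of the whole gene. Over the unshared length alone, estimated from the 100-base stretches, *C1s1* exceeded *C1ra* in 3 of the 6 libraries, with ratios of 0.633 to 1.49, so the order of these 2 genes is not settled.

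Ratios within a library also varied by replicate number, though not all in the same way. *Serping1* per sum of its targets *C1ra* and *C1s1*, each per kb, was 3.19, 0.670 and 1.17 in WT and 4.24, 0.412 and 0.568 in CharmeKO. The RNA of the inhibitor thus exceeded that of the 2 proteases in both libraries numbered 1 and lay below it in both numbered 2. Full exon length was used, so the ratio is too high where reads of *C1ra* went uncounted, and no protein was measured. *C3* per *Cd55*, each per kb, was 1.37, 12.6 and 4.76 in WT and 1.95, 34.4 and 17.8 in CharmeKO. This ratio was highest in library 2 of each genotype and higher in CharmeKO in all 3 pairs, with overlapping groups. *C3* per *C4b*, each per kb, was 2.78, 9.34 and 19.1 in WT and 3.94, 24.9 and 14.2 in CharmeKO, so it was highest in library 3 of WT but in library 2 of CharmeKO, and lower in CharmeKO in pair 3. The range was narrower for *C1s1* per *C1ra*, from 0.920 to 2.17, and for *C3* per *C1s1*, from 0.698 in WT 1 to 1.71 in CharmeKO 3.

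The wider complement system was read from 7 lists of 62 genes, of which 43 were in the table and 40 were tested. Of these 40, 0 were called by limma, edgeR or DESeq2, with or without the block, and 0 had an unadjusted limma p below 0.05 without the block. With the block, limma listed 6 of the 40 at an unadjusted p below 0.05 (*Clu*, *C3*, *C4bp*, *Cd59a*, *C1ra* and *C1s2*), beside 5.37% of all tested genes. There were 19 with a higher and 21 with a lower estimate in CharmeKO, with a median of -0.099, beside 0.0022 over all tested genes. The 8 tested members had 6 higher and 2 lower, with a median of 0.20. Both libraries numbered 2 exceeded the other 4 for 13 of the 40 genes, and for 16.1% of all tested genes, and 6 of these 13 were the members named above.

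In the classical pathway list, *C1qb* and *C1qc* were not highest in the libraries numbered 2. *C1qb*, a chain of the recognition protein C1q and a macrophage product, held 211, 139 and 48.3 normalised reads in WT and 453, 204 and 7.83 in CharmeKO. It was highest in CharmeKO 1 and lowest in CharmeKO 3, as were *C1qc* and the macrophage marker sum, which contains these genes. *C1qa*, a further chain, was highest in library 2 of each genotype, though barely in WT, with 102, 109 and 36.3 normalised reads in WT and 212, 233 and 6.09 in CharmeKO. In the lectin list *Colec12*, a scavenger receptor of the collectin family, spanned 2.19-fold, with 8496, 15771 and 10659.7 normalised reads in WT and 9043, 12769 and 7208 in CharmeKO. It was highest in library 2 of each genotype. The terminal pathway was near absent, with 3 of 7 genes in the table and summed levels of 22.6 to 86.5 normalised reads.

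Among the soluble regulators, *Clu*, which encodes clusterin, an inhibitor of the membrane attack complex, held 762, 10266 and 7305 normalised reads in WT and 712, 89290.3 and 69642 in CharmeKO. It was level in pair 1 and far higher in CharmeKO in pairs 2 and 3, with a difference of 2.09 ± 2.00 (SE) and an unadjusted limma p of 0.042 with the block, which did not pass adjustment. *C4bp*, which encodes a chain of the C4-binding protein, held 218, 216 and 85.7 in WT and 138, 146 and 31.3 in CharmeKO, lower in all 3 pairs, with overlapping groups.

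Of the membrane regulators other than *Cd55*, *Cd59a*, which encodes an inhibitor of the membrane attack complex, held 327, 345 and 290.03 normalised reads in WT and 326, 68.8 and 34.8 in CharmeKO. It was level in pair 1 and lower in CharmeKO in pairs 2 and 3, with a difference of -1.78 ± 0.78 (SE), and a DESeq2 adjusted p of 0.25 with the block. *Cr1l*, which encodes the rodent regulator Crry, was steady at 2033, 1545 and 1420.5 in WT and 2041, 1727 and 1324 in CharmeKO. Among the receptors, *C3ar1*, which encodes the receptor for C3a, held 618, 159 and 202 in WT and 876, 232 and 77.4 in CharmeKO, highest in the libraries numbered 1. *Itgb2*, which encodes the shared chain of the leukocyte complement receptors, and *Cd93* were also highest in CharmeKO 1 and lowest in CharmeKO 3, and *C1qbp* varied between 2400.2 and 4487.

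**Figure D4:**
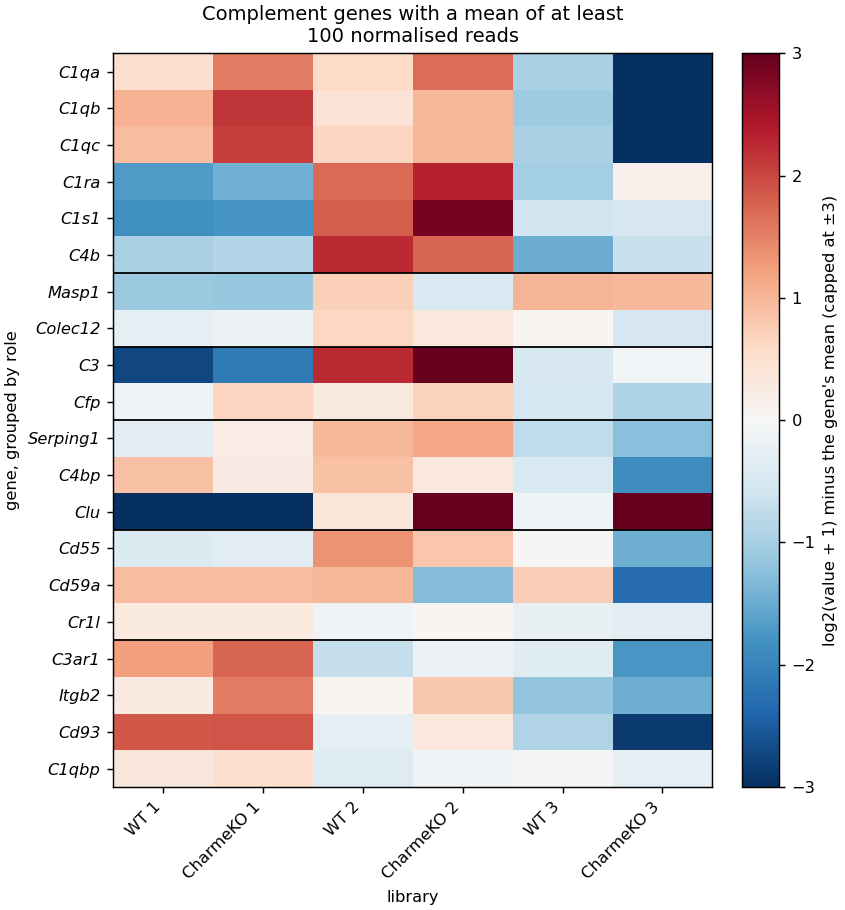
Colour gives log2(value + 1) minus the mean of the gene over the 6 libraries, capped at 3 either way, for 20 complement genes with a mean of at least 100 normalised reads (y axis, lines separate roles) in each library (x axis, WT and CharmeKO of equal number side by side). *C1ra*, *C1s1*, *C4b* and *C3* are high in both libraries numbered 2, while the C1q genes are lowest in CharmeKO 3 and *Clu* is high in CharmeKO 2 and 3.

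Genes known to induce complement or to rise with it in the acute phase were described from a list of 16, all tested, of which 0 were called by limma, edgeR or DESeq2. There were 13 with a higher and 3 with a lower estimate in CharmeKO, with a median of 0.21. Both libraries numbered 2 exceeded the other 4 for 7 of the 16, and for 16.1% of all tested genes. *Socs3*, a feedback inhibitor of cytokine signalling, held 2252, 10947 and 3319.95 normalised reads in WT and 2238, 18641 and 5069 in CharmeKO. *Saa3*, an acute phase gene of fibroblasts and macrophages, held 36.4, 525 and 163 in WT and 66.3, 73491.5 and 368 in CharmeKO. *Hp*, which encodes haptoglobin, held 12.8, 769.8 and 255 in WT and 27.9, 3207 and 283 in CharmeKO. These 3 genes shared with *C3* the order of replicate numbers, 2 above 3 above 1, in both genotypes. *Nfkbia*, a target and inhibitor of NF-kB, did so as well, with 746, 2602 and 998 in WT and 836, 3347 and 1089.8 in CharmeKO. *Irf1*, *Cebpb*, *Il6ra* and *Stat3* had this order too, though *Stat3* varied little, between 10832 and 13337. *Il6* did not, with 2782, 1982 and 1564 in WT and 2331, 2169.8 and 2594 in CharmeKO, nor did the other genes of the list. The share of all genes with this order was not counted.

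Over 11537 genes with a mean of at least 100 normalised reads, those most like *C3* over the 6 libraries were *Hdac10* (Pearson r = 0.996), *Ikbke* (r = 0.996) and *Adarb1* (r = 0.996) on the log2 scale. *Ikbke*, which encodes a kinase upstream of interferon and NF-kB signalling, held 741, 1708 and 1070.03 normalised reads in WT and 764, 2191 and 1105 in CharmeKO, a much narrower range than that of *C3*. Those most like the mean standardised level of the 9 members were *Dhcr7* (r = 0.993), *H1f0* (r = 0.991) and *Syt13* (r = 0.990). That mean gives equal weight to *Cfb*, which had too few reads to be tested, and to *Masp1*, which departed from the pattern. With 6 libraries that share 3 replicate numbers, these values are a description.

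Other measures of the libraries also differed by number. The smooth muscle and pericyte marker sum was lower in both libraries numbered 2 (31269 in WT and 11106 in CharmeKO normalised reads) than in both numbered 1 (139153 and 132243), while library 3 held 236820.0 in WT and 30407 in CharmeKO. Most of this sum came from *Acta2* and *Tagln*, which were lowest in library 2 of each genotype, as were *Myh11* and *Cnn1*. *Rgs5* was instead highest there, with 45.3, 997 and 51.6 normalised reads in WT and 30.8, 201 and 75.7 in CharmeKO. *Notch3* was highest there too, at 4166 in WT and 3055 in CharmeKO. The mesothelial marker sum was highest in both libraries numbered 1, at 13168 in WT and 14831 in CharmeKO, and 885 to 3566 elsewhere. *Msln*, *Upk3b*, *Upk1b* and *Lrrn4* shared this peak. *Wt1* was instead highest in library 2 of each genotype, at 1011 in WT and 1500 in CharmeKO, and *Krt19* was highest in WT 3, at 781. The fibroblast marker share was highest in WT 2 and CharmeKO 2, at 5.36% and 4.43% of reads, and 2.53 to 4.27% in the others. As a sum of normalised reads, however, CharmeKO 3 (1739440) lay slightly above CharmeKO 2 (1734490). Both libraries numbered 2 exceeded the other 4 for 4 of the 9 fibroblast markers, and for 16.1% of all tested genes. *Vim* was instead lowest in both, at 85742 in WT and 60556 in CharmeKO. Within CharmeKO, though not within WT, *Col3a1* and *Tcf21* were also lowest in library 2, at 191059 and 199 normalised reads. The part of these markers in the levels of *C3*, *C1ra*, *C1s1* and *C4b* was not tested. Without both libraries numbered 2, an alternative chosen after seeing the data, limma called 0 of the 8 members, and the differences were 0.49 for *C3*, 0.72 for *C1ra*, 0.46 for *C4b*, 0.19 for *Cfp*, 0.084 for *C1s1* and 0.044 for *Serping1*. For *Cd55* the difference was then -0.72 and for *Masp1* -0.040.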

How the data were processed

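RNA had been extracted from 3 WT and 3 CharmeKO cultured CF samples for poly(A) RNA-seq. Alignment and strand-specific (reverse) counting had been done by the authors in STAR, on an Ensembl annotation with *Charme* added, before a filter on low counts and DESeq2 normalisation. The deposited signal is therefore the reads of a gene over its library's size factor. Reads that map to more than 1 place or overlap more than 1 gene are not counted by STAR. The study names the build GRCm39 together with an older Ensembl release, and the processing notes of the submitters also name GRCh38. The table holds no coordinates, so positions here are those of GENCODE for GRCm38.

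Division by the smallest step of each library gave whole reads for 100% of 116676 values (tolerance 1e-06). Libraries held 38330019 to 46797446 reads. A count of 0 allows up to 3 reads, which covers counting error only. limma 3.58.1 (mean-variance trend, R 4.3.3) was run on log2(value + 1), which understates changes of genes with few reads, with edgeR 4.0.16 (quasi-likelihood, TMM) and DESeq2 1.42.0 on the recovered reads as alternatives. Other pseudocounts, filters and scalings, a replicate block and leaving out each library were also tried. Scripts were tested on simulated data. Plots used Python 3.11.15 and matplotlib 3.10.9.

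Equal replicate numbers were taken to pair the libraries, because the deviations of same-numbered libraries from their group means correlated with r = 0.762, 0.514 and 0.217 across genes, all over 0.1. Libraries of different number gave -0.643 to 0.222, so pair 3 did not stand apart. The check used the same values as the fits with the block. The labels do not say what libraries of equal number share. The members and lists were chosen with earlier results of these data known. All 9 members were named, and of the other listed genes those with a mean of at least 100 normalised reads and the near-identical copies of members, besides the 3 genes most like *C3* and the 3 most like the mean of the members. Of the listed genes, 1 is counted in the totals and not reported by itself here.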

Additional observations from a re-analysis of the deposited data

How the results depend on the processing

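Of the 8 tested members (9 with no filter) 0 were called, and of the complement genes tested (28 to 43, depending on filter and libraries) 0 were called, under all 19 alternatives, which include a replicate block in limma, edgeR and DESeq2. Over all genes the count was 0 except for DESeq2, which called 8, and DESeq2 with the replicate block, which called 64. Outside the settings that left out libraries, the sign of a difference turned only for *C4b*, to -0.31 with edgeR and -0.31 with DESeq2. Leaving out 1 library at a time gave log2 differences of -0.79 to 1.91 for *C3*, -0.70 to 1.30 for *C4b*, -0.30 to 1.70 for *C1ra*, -0.93 to 1.42 for *C1s1*, -0.019 to 0.79 for *Cfp*, -0.46 to 0.74 for *Serping1*, -1.23 to -0.078 for *Cd55* and -1.07 to 0.060 for *Masp1*. *Cfb* gave a value only with no filter on low counts, at -0.70, and could not be fitted otherwise. The other scalings moved the median difference of all genes by at most 0.034. Within a genotype *C3* spanned 31.1-fold (WT) and 39.1-fold (CharmeKO) between libraries. The SE of its difference was 1.65 without and 0.14 with the replicate block. *Cfb* had too few counted reads to be tested, and under the GENCODE annotation reads on the exon bases it shares with *Gm20547* are not counted.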
